A study of Mus musculus with 18 samples.

Results

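The comparison described here is that of heart cells taken from C57BL/6 mice at day 21 of isoproterenol treatment with those taken at day 14. Isoproterenol (ISO) is an agonist of beta-adrenergic receptors that is used to injure and overload the mouse heart. The members were the libraries whose titles name this strain, this treatment and these days, 2 of day 21 and 2 of day 14, which makes 4 of the 18 samples of the series. The 2 saline libraries of the same strain (sham) were used as the reference level, so that a return towards sham could be told from a new difference. Drug or saline came from implanted pumps, and the cells were sorted as Thy1+, a surface protein used to enrich cardiac fibroblasts. The labels call the population Thy1+ HE or Thy1+HE- without spelling out HE. The sham labels carry no day, so the same 2 sham libraries stand beside both days and a day effect of the pump itself cannot be told apart from the ISO days. Whether the 2 libraries of a group came from different animals or from pools is not stated in the labels. The p-values therefore reflect library-to-library spread, part or all of which may be technical. That spread was estimated over all 18 libraries, which also include sham, day 14 and day 21 groups of the strains C3H/HeJ and KK/HlJ. Values of a pair are given in the order replicate 1, replicate 2 throughout.

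Cardiac fibroblasts make and remodel the collagen matrix of the heart. Under stress signals such as TGF-beta and beta-adrenergic drive they become activated, secrete matrix and matricellular proteins, and can take up a contractile programme that is controlled in part by serum response factor. Activation can fade when the stress stops or when the tissue adapts, and scar-stage fibroblasts carry other genes than freshly activated ones.

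Totals for C57BL/6 were 25356498 and 24748674 counts (sham), 16565460 and 14649066 (day 14), and 10453121 and 14871905 (day 21), against 7230741 to 26280685 over the whole series. Replicates of each C57BL/6 group were clearly distinct libraries, since the chi-square statistic of their counts was 81.64 to 84.9 per degree of freedom. They correlated across genes in log2 CPM, the count scaled to library size, at r = 0.9408 (sham), 0.8835 (day 14) and 0.885 (day 21). Fibroblast genes were present in each library. Pdgfra, a receptor of cardiac fibroblasts, stood at 604 and 582 CPM at day 14 and at 520 and 559 CPM at day 21. Tcf21, a fibroblast transcription factor, stood at 504 and 348 CPM and at 258 and 411 CPM. Thy1, the sorted protein, stood at 333 and 291 CPM and at 135 and 341 CPM. Lymphocyte markers were nearly absent, with 11 of 20, Cd3e among them, at 0 in all 6 libraries, and the macrophage and monocyte markers summed to at most 78.54 CPM.

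No gene passed the test between day 21 and day 14. EdgeR's quasi-likelihood test, fitted over all 18 libraries, called 0 of 15762 genes at an adjusted p under 0.05 (0%). The lowest adjusted p was 0.543, for Kdm6b and Nit2. At an unadjusted p under 0.05 there were 542 genes, 289 higher at day 21 (1.83% of genes tested) and 253 lower (1.61%). Both day 21 libraries lay above both day 14 libraries in 2641 genes (16.8%) and below them in 2503 genes (15.9%). These shares are the background for the counts of list members below. They depended on transcript length: 27% of genes of up to 1000 nt were above and 5.04% below, against 11.1% and 23.4% of genes of 4000 to 8000 nt. DESeq2 called 13 genes (8 higher, 5 lower), a fit without the filter on low counts called 19 (12 higher, 7 lower), and a fit without 4 libraries of the other strains that stood apart called 5 (2 higher, 3 lower). Kdm6b was called in these 3 fits, and Nit2, Camsap1, Irs2, Adh1, Rpl39 and Lyz2 in 2 of them. All other fits, including each that left out 1 of the 4 libraries, called 0. The genes below are therefore described by their values. The 20 first ones are those of lowest p in each direction among genes without overlap of the days and with at least 5 CPM on the higher side.

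The 10 genes of lowest p with lower values at day 21 were Kdm6b, Irs2, Camsap1, Spry4, Fam107b, Ski, Fosl2, Sbno2, Apold1 and Cdr2l. Kdm6b, a demethylase of the repressive mark on lysine 27 of histone H3 (chromosome 11, 69398508 to 69413675 on mm10), stood at 170 and 118 CPM at day 14 and at 30.3 and 32.8 CPM at day 21, with sham at 153 and 71 CPM. Its log2 fold change was -2.19 (SE 0.437; edgeR adjusted p = 0.543). Both day 21 libraries lay below each of the 4 others. Irs2, an adaptor of the insulin receptor, had 115 and 101 CPM at day 14, 25 and 25.8 CPM at day 21 and 163 and 70.7 CPM in sham, a log2 fold change of -2.09 (SE 0.462). Camsap1, which binds the minus ends of microtubules, stood at 20.5 and 26.3 CPM at day 14, 1.68 and 2.91 CPM at day 21 and 16.6 and 14.6 CPM in sham (-3.34, SE 0.78). In both genes the day 21 libraries were the lowest of the 6. Fosl2, a subunit of the transcription factor AP-1, stood at 372 and 414 CPM at day 14 and 132 and 159 CPM at day 21, with sham at 483 and 191 CPM. Ski, a corepressor of SMAD transcription factors, stood at 416 and 362 CPM at day 14 and 146 and 158 CPM at day 21, with sham at 391 and 239 CPM. The day 21 values of both genes lay below all sham and day 14 values.

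The other 5 genes of this set were Spry4, an inhibitor of receptor tyrosine kinase signalling, the transcriptional coregulator Sbno2, Fam107b, Apold1 and Cdr2l. Spry4 had 53.6 and 87 CPM at day 14 and 24.6 and 16.3 CPM at day 21 (log2 fold change -1.78). Apold1 had 32.4 and 50.8 CPM at day 14 and 7.76 and 1.94 CPM at day 21 (-3.10). The log2 fold changes of Fam107b, Sbno2 and Cdr2l were -2.11, -1.47 and -1.94. Sham replicate 1 was above sham replicate 2 in all 10 of these genes, and it was far above it in Apold1, at 118 against 32.9 CPM, and in Fosl2. Read against the sham mean, 8 of the 10 were new differences of day 21, meaning that day 14 was less than 0.5 times as far from sham as day 21 was on the log2 scale. The remaining pair, Sbno2 and Cdr2l, was above sham at day 14 and below it at day 21. None of the 10 returned towards sham, meaning that day 21 was less than 0.5 times as far from sham as day 14 was, on either side. Among the 253 genes lower at an unadjusted p under 0.05, 64.8% were new differences, 8.3% returned towards sham and 26.5% crossed it. Over all genes tested, the shares were 33.6%, 23.8% and 15.2%. The genes were chosen for their low day 21 values, and the same sham libraries enter both distances, so this is a description.

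The 10 genes of lowest p with higher values at day 21 were Nit2, Snrpe, Pdlim2, Adh1, Ndufa4, Hspe1, Rps21, Rpl39, Coa3 and Ralgps1. Nit2, an amidase of small nitrogen compounds (chromosome 16, 57156665 to 57167341), stood at 9.35 and 5.33 CPM at day 14, 44.9 and 49.4 CPM at day 21 and 27.6 and 24.7 CPM in sham. Its log2 fold change was 2.68 (SE 0.549; edgeR adjusted p = 0.543), with sham between the days. Snrpe, a core protein of the spliceosome, had 21.3 and 7.58 CPM at day 14 and 58.3 and 72.4 CPM at day 21, with 35.8 and 33 CPM in sham. Hspe1, the mitochondrial co-chaperonin, had 10.7 and 5.97 CPM at day 14 and 41.7 and 35.3 CPM at day 21, with 23.2 and 14.2 CPM in sham. In both genes the order of the groups was day 14, sham, day 21, with no overlap. Coa3, an assembly factor of cytochrome c oxidase, stood at 29.8 and 42.6 CPM at day 14, 104 and 115 CPM at day 21 and 73.8 and 84 CPM in sham (log2 fold change 1.60, SE 0.454). Ndufa4, a subunit of the respiratory chain, had 53.8 and 85.8 CPM at day 14 and 211 and 158 CPM at day 21 (1.40, SE 0.386).

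Adh1, an alcohol dehydrogenase that also oxidizes retinol, had the largest difference of the set among genes with counts in each library. It stood at 1.07 and 11 CPM at day 14, 116 and 68.8 CPM at day 21 and 11.9 and 34.1 CPM in sham (log2 fold change 3.93, SE 1.02). On the log2 scale the 2 day 14 libraries differed more from each other than the nearer of them did from day 21. Ralgps1, an exchange factor for Ral GTPases, had 0 counts in both day 14 libraries and 9.17 and 1.87 CPM at day 21, at least 29-fold higher against a floor of 3 counts per library, or at least 9.82-fold from day 21 replicate 2 alone. Its sham level was 9.44 and 5.35 CPM. Pdlim2, a PDZ and LIM domain protein, had 117 and 157 CPM at day 14 and 272 and 437 CPM at day 21, and its sham libraries, at 176 and 277 CPM, overlapped day 21. Of the 10 genes, 3 returned towards sham (Nit2, Coa3 and Ralgps1), 1 was a new difference (Rpl39) and 6 crossed sham. Nit2 and Coa3 count as returns by distance, although both their day 21 libraries lay above both sham libraries. Among the 289 genes higher at an unadjusted p under 0.05, 31.1% returned towards sham, 27.3% were new differences and 41.2% crossed it. Over all genes tested, the shares were 23.8%, 33.6% and 15.2%. As for the lower genes, this is a description.

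**Figure D1:**
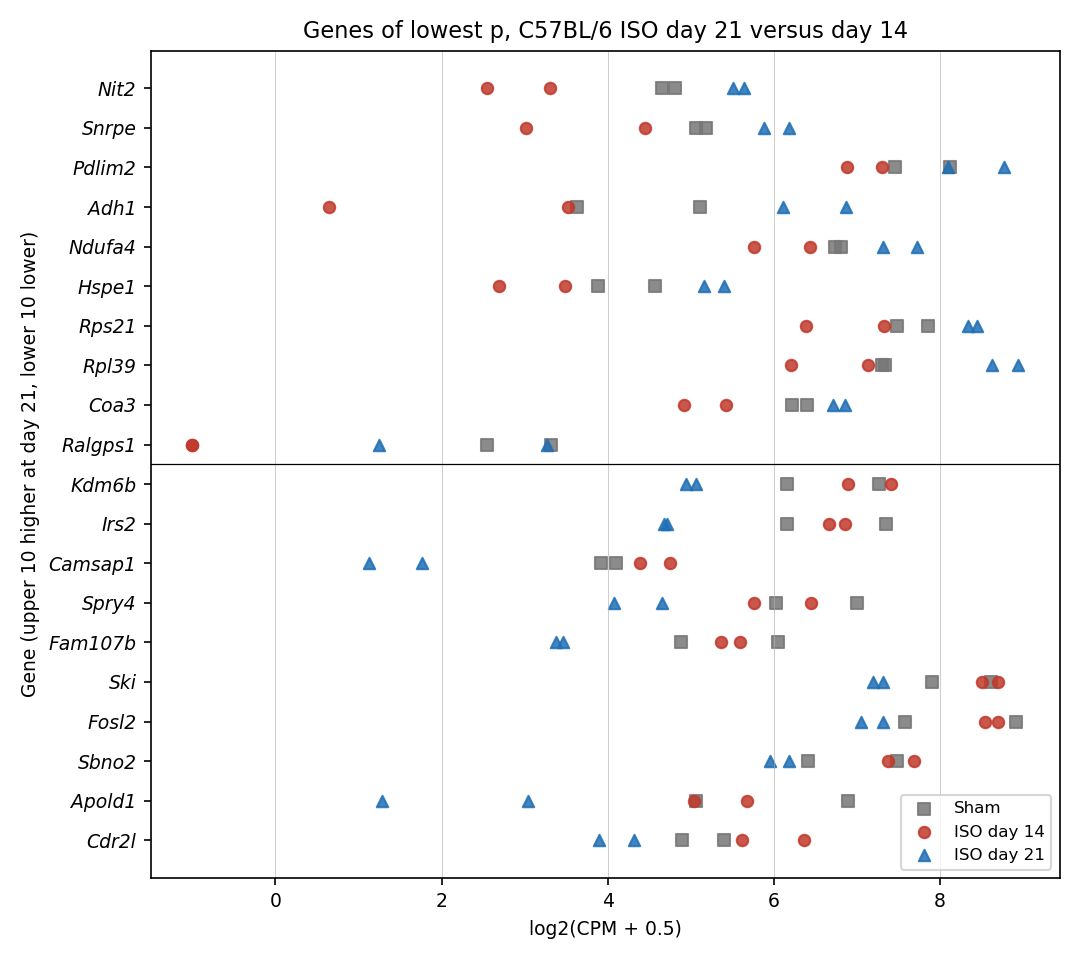
Level of the 20 genes of lowest p in each C57BL/6 library, as log2 of CPM plus 0.5 on the horizontal axis, with squares for sham, circles for ISO day 14 and triangles for ISO day 21 (2 libraries each). The triangles lie to the right of the circles in the upper 10 genes and to the left in the lower 10, where they also lie to the left of the squares in each gene.

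Fibrillar collagens stood high at day 14, while the 2 day 21 libraries lay on either side of sham. Relative to the sham mean, the list's median log2 level was 0.79 and 0.54 at day 14 and -0.65 and 0.42 at day 21. Of the 11 tested, 0 were called, 8 had both day 21 libraries below both day 14 libraries (72.7%) and 0 had both above. The share below was 15.9% of all genes and 23.4% in the class of 4000 to 8000 nt, where the list's median length of 6119 nt falls. Of the 11, 2 were at 0 in both libraries of a single day. The list's median log2 fold change from day 14 to day 21 was -0.95, against 0 over all genes. It was -0.82 over the 7 members with a mean of at least 5 CPM. The list's medians against sham were 0.67 at day 14 and -0.21 at day 21. Leaving out 1 library at a time gave -0.68 to -1.38. Col3a1, the chain of type III collagen (chromosome 1, 45311538 to 45349706), had 14779 and 10757 CPM at day 14, 3636 and 7158 CPM at day 21 and 6126 and 4466 CPM in sham. Its log2 fold change was -1.24 (SE 0.503; edgeR adjusted p = 0.903). The day 14 libraries were the 2 highest and the day 21 libraries straddled sham. Col5a1, which regulates fibril diameter, had 2183 and 1759 CPM at day 14, 840 and 1355 CPM at day 21 and 1576 and 1107 CPM in sham. Col5a2 had 1320 and 782 CPM, 524 and 567 CPM, and 672 and 498 CPM in the same order. Col1a1, the main chain of type I collagen, had 4653 and 4516 CPM at day 14 against 2030 and 4332 CPM at day 21. Day 21 replicate 1 was the lower library in these 4 collagens, and replicate 2 of Col1a1 nearly reached day 14. Col12a1, a collagen that sits on fibrils, overlapped between the days, at 34.5 and 49.8 CPM and 36.6 and 23.6 CPM.

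Activated fibroblast and matricellular genes stood lower at day 21 in part, with a median above sham on both days. The 35 genes had a median log2 fold change of -0.33. Both day 21 libraries were below both day 14 libraries in 11 (31.4%, against 15.9% of all genes) and above in 4 (11.4%, against 16.8%). Their medians against sham were 0.96 at day 14 and 0.72 at day 21, and the median day difference was -0.08 without day 14 replicate 1 and -0.52 without day 21 replicate 2. Postn, a matricellular protein of activated fibroblasts (chromosome 3, 54361109 to 54391037), stood at 2013 and 1339 CPM at day 14, 1003 and 732 CPM at day 21 and 424 and 297 CPM in sham. The 3 groups did not overlap, and the day difference was -0.95 in log2 (SE 0.388; edgeR adjusted p = 0.903). Leaving out 1 of the 4 libraries gave Postn differences of -0.625 (without day 14 replicate 1) to -1.21 (without day 14 replicate 2), and offsets for transcript length and GC content gave -1.47. Ltbp2, a latent TGF-beta binding protein of microfibrils, had 184 and 221 CPM at day 14, 103 and 132 CPM at day 21 and 75.6 and 67.8 CPM in sham (-0.78, SE 0.387). It too was ordered day 14, day 21, sham without overlap. Sfrp2, a secreted modulator of Wnt signalling, had 77.9 and 93.3 CPM, 45.6 and 68.1 CPM, and 35.5 and 28.5 CPM in that order.

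In Cilp, Pamr1 and Serpina3n, also of the activated set, the day difference was smaller than its error. Cilp, a matrix protein, had 693 and 449 CPM at day 14 and 471 and 518 CPM at day 21, against 191 and 269 CPM in sham. Pamr1, a secreted protein, had 233 and 281 CPM at day 14, 238 and 344 CPM at day 21 and 119 and 116 CPM in sham. Serpina3n, a protease inhibitor, had 179 and 227 CPM, 158 and 176 CPM, and 76.1 and 132 CPM. Prg4, the lubricant proteoglycan 4, had 88.5 and 83.7 CPM, 80.2 and 65.8 CPM, and 39.7 and 40.6 CPM. The days overlapped in Cilp and Pamr1, and all 4 ISO libraries were above both sham libraries in Cilp, Pamr1, Serpina3n and Prg4. The log2 day differences of Cilp, Pamr1 and Serpina3n were -0.21 (SE 0.348), 0.18 (SE 0.322) and -0.28 (SE 0.366). Cilp changed sign without day 14 replicate 1 (0.14) and Pamr1 without day 21 replicate 2 (-0.11). Aspn, a small leucine-rich proteoglycan, was among the 4 genes with both day 21 libraries above, at 628 and 314 CPM at day 14 and 1557 and 662 CPM at day 21.

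Thbs1 stood below sham as well as below day 14. Thbs1 encodes thrombospondin 1, an activator of latent TGF-beta, and had 1878 and 885 CPM at day 14, 436 and 238 CPM at day 21 and 949 and 586 CPM in sham (log2 fold change -2.04, SE 0.599). At day 21 Thbs1 was lower than in all 4 other libraries. Thbs1, like Col3a1, was called by the fit without the low-count filter and by no other. Ccn2, a connective tissue growth factor, had 2368 and 630 CPM at day 14 and 846 and 558 CPM at day 21. Its day 14 level rested on replicate 1, and without that library its day difference turned from -1.09 to 0.16. Plaur, the urokinase receptor, stood at 80.5 and 32.1 CPM against 27.5 and 12.8 CPM, and Adamts1, a matrix protease, at 430 and 284 CPM against 227 and 154 CPM. Mmp23 went the other way, at 244 and 290 CPM against 387 and 500 CPM. Of the 29 matrix proteases and inhibitors, both day 21 libraries were below in 8 (27.6%) and above in 2 (6.9%), with a median of -0.19 that was 0 without day 14 replicate 1 and -0.41 without day 21 replicate 2. Their median transcript length of 4389 nt falls in the class of 4000 to 8000 nt, where 23.4% of genes were below.

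**Figure D2:**
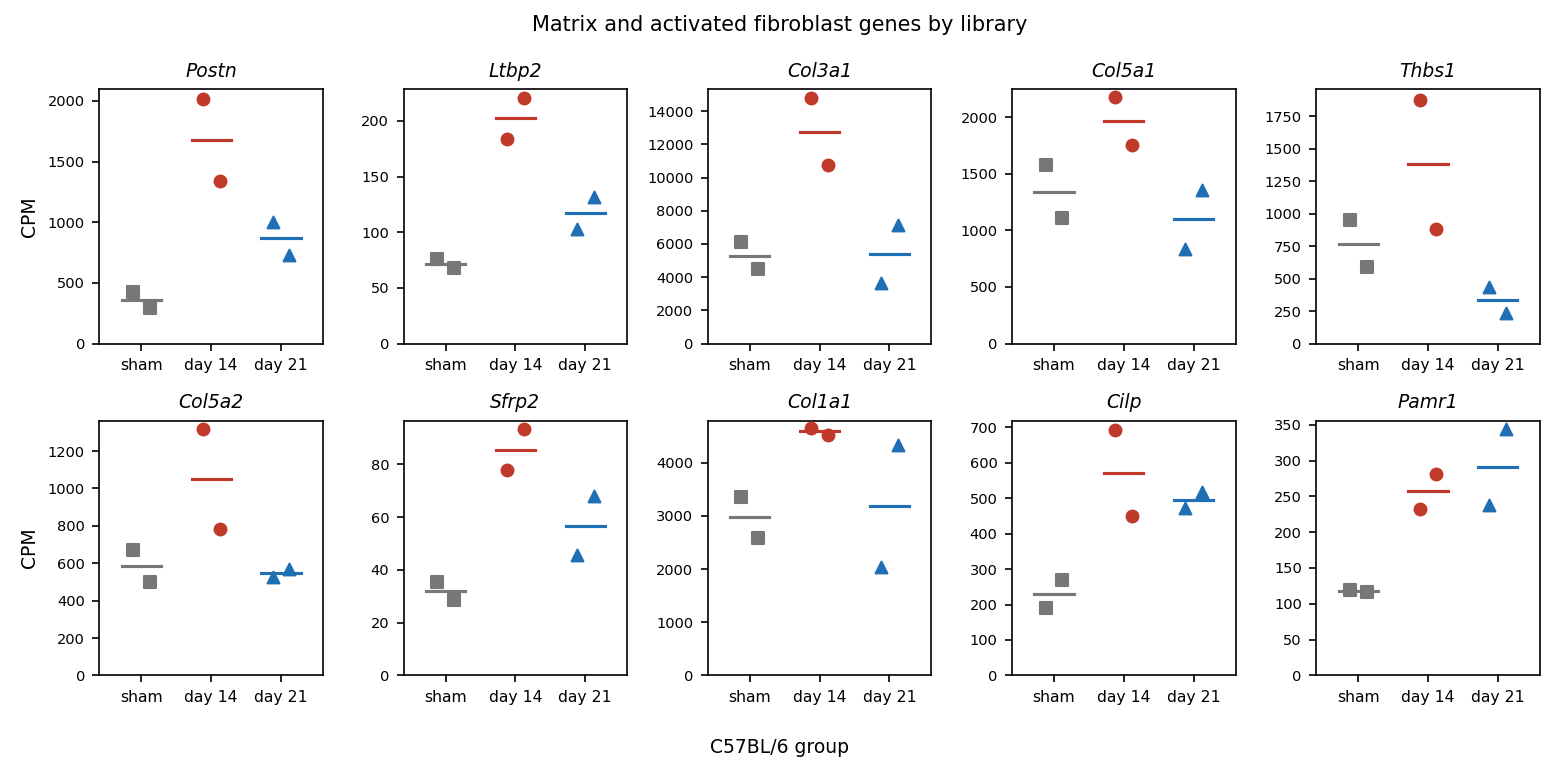
CPM of 10 matrix and activated fibroblast genes in each C57BL/6 library, by group on the horizontal axis, with a horizontal bar at the mean of 2 libraries. Postn, Ltbp2 and Sfrp2 at day 21 lie between sham and day 14, Col3a1 and Col5a1 lie around sham, Thbs1 lies below sham, and Cilp and Pamr1 remain near day 14.

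Basement membrane genes also stood lower at day 21, but from a day 14 level close to sham. The 22 genes had a median log2 fold change of -0.66, with both day 21 libraries below in 11 (50%) and above in 1 (4.55%). Their median transcript length of 6493 nt falls in the class of 4000 to 8000 nt, where 23.4% of genes were below and 11.1% above. Against sham the medians were 0.18 at day 14 and -0.46 at day 21. Col4a1, a chain of type IV collagen, stood at 2415 and 1649 CPM at day 14, 809 and 1349 CPM at day 21 and 1969 and 1721 CPM in sham. Its partner Col4a2 stood at 1079 and 858 CPM, 503 and 712 CPM, and 996 and 706 CPM. Lamc1, a laminin chain, stood at 2613 and 2002 CPM, 1133 and 1552 CPM, and 2010 and 1938 CPM. In the 3 genes both day 21 libraries were below both day 14 libraries, and replicate 1 was the lower one. Without that replicate the list's median was -0.30, and without day 14 replicate 1 it was -0.33. Hspg2, the proteoglycan perlecan, stood at 1821 and 1983 CPM at day 14 and at 863 and 1575 CPM at day 21.

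In the TGF-beta pathway, the lowest p-values belonged to Ski and Smurf1, regulators of SMAD signalling that stood lower at day 21. Its 37 genes had a median of -0.34, with both day 21 libraries below in 12 (32.4%) and above in 2 (5.41%), and 0 were called. Their median transcript length was 4278 nt, and in the class of 4000 to 8000 nt 23.4% of genes were below and 11.1% above. The median log2 fold change was -0.15 without day 14 replicate 1 and -0.64 without day 21 replicate 1. Among the ligands, Tgfb1 had 161 and 86.3 CPM at day 14 and 131 and 63.4 CPM at day 21, and Tgfb3 had 265 and 250 CPM and 234 and 202 CPM. Among the receptors, Tgfbr2 had 344 and 397 CPM and 244 and 309 CPM, and Tgfbr1 had 48.9 and 51.4 CPM and 73.3 and 35.7 CPM. The days overlapped in Tgfb1 and Tgfbr1, and both changed sign under some alternatives. The transducer Smad3 had 85.7 and 146 CPM at day 14 and 47.4 and 80.9 CPM at day 21 (log2 fold change -0.85, SE 0.44). Smurf1, a ubiquitin ligase that removes pathway proteins, had 116 and 115 CPM, 62.6 and 46.5 CPM, and 86.5 and 66.6 CPM in sham (-1.08, SE 0.364), and its relative Smurf2 had 104 and 69.5 CPM and 58.4 and 43.4 CPM. The inhibitory Smad7 stood at 62.4 and 54 CPM at day 14, 33.9 and 29.1 CPM at day 21 and 34.5 and 24.5 CPM in sham. Day 21 thus overlapped sham in Smad7 and lay below both sham libraries in Smurf1.

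The beta-adrenergic and cAMP pathway, through which ISO acts, stood below both day 14 and sham at day 21. Its 35 genes had a median log2 fold change of -0.59, which ran from -0.43 to -0.68 with 1 library left out. Both day 21 libraries were below in 14 (40%) and above in 1 (2.86%), and the medians against sham were -0.00477 at day 14 and -0.54 at day 21. The list's median transcript length was 4282 nt, and in the class of 4000 to 8000 nt 23.4% of genes were below and 11.1% above. Of the receptors, Adrb1 was scarce, with at most 0.191 CPM in any C57BL/6 library. Among the enzymes, the cAMP phosphodiesterase Pde4b had 368 and 269 CPM at day 14, 171 and 140 CPM at day 21 and 328 and 253 CPM in sham (-1.03, SE 0.435). The adenylyl cyclase Adcy6 had 97.8 and 144 CPM at day 14 and 63.5 and 91.1 CPM at day 21, with 244 and 167 CPM in sham. Pde4b at day 21 lay below the 4 other libraries, while Adcy6 was already below sham at day 14. Nr4a1, a nuclear receptor gene induced by cAMP, had 1861 and 1546 CPM at day 14, 837 and 1271 CPM at day 21 and 1849 and 1344 CPM in sham.

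Immediate-early genes, which cells switch on within minutes of stimulation or of handling, stood lower at day 21 in some members. None of 30 was called, 11 had both day 21 libraries below (36.7%, against 15.9% of all genes) and 0 had both above (against 16.8%). The median was -0.29, and it was -0.09 without day 21 replicate 1 and -0.61 without day 21 replicate 2. Fosb, an AP-1 subunit, had 3068 and 2393 CPM at day 14, 964 and 1822 CPM at day 21 and 4737 and 2573 CPM in sham (log2 fold change -0.97, SE 0.385). Myc, a growth regulator, had 402 and 287 CPM, 181 and 189 CPM, and 263 and 216 CPM. Egr3 had 89.9 and 40 CPM, 32 and 13.3 CPM, and 42.5 and 25.4 CPM. The best known members overlapped between the days: Fos had 1106 and 1490 CPM at day 14 and 1468 and 1672 CPM at day 21, and Egr1 had 2016 and 2481 CPM and 1471 and 2396 CPM. Jun stood at 949 and 831 CPM and at 650 and 1070 CPM. The sign of the day difference in Egr1 and Jun depended on single libraries. The part of cell handling in these values was not tested.

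Contractile and cytoskeletal genes stood lower at day 21 than at day 14 and than in sham, by their median. Of 26 tested, 0 were called, 9 had both day 21 libraries below (34.6%, against 15.9% of all genes) and 0 had both above (against 16.8%). The median was -0.63 against day 14 and -0.74 against sham. Srf, serum response factor itself, had 108 and 70.8 CPM at day 14, 35.1 and 47.2 CPM at day 21 and 76.3 and 74.6 CPM in sham (log2 fold change -1.12, SE 0.426). Vcl, which encodes the adhesion protein vinculin and is not on the list, had 159 and 153 CPM, 63.4 and 58.7 CPM, and 123 and 110 CPM (-1.35, SE 0.398; edgeR adjusted p = 0.903). Actn1, an actin crosslinker of adhesions, had 62.1 and 107 CPM, 36.4 and 32.8 CPM, and 67.3 and 53.8 CPM. In these 3 genes both day 21 libraries were the lowest of the 6. Myl9, a myosin light chain, had 186 and 356 CPM at day 14, 145 and 134 CPM at day 21 and 350 and 149 CPM in sham, so that day 21 was lowest again but by a narrow margin.

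Serum response factor binds the CArG box, a 10-letter motif. It was searched for in the 250 bases before each RefSeq gene start (GRCm38.p6). The reason was that Srf, Myl9 and Vcl are among the textbook targets of this factor and stood lower at day 21 than at day 14. Vcl is not on the contractile list. The 3 genes were picked as known targets, so boxes in them were likely beforehand and are no test of the low values. The motif is its own reverse complement, so both strands were covered. It was found for 439 of 27025 genes (1.62%), for 2 of 21 contractile genes with a promoter in the table (9.52%) and for 2 of 25 immediate-early genes (8%). The 2 contractile genes were Srf and Myl9 themselves. The sequences around the boxes of the 3 genes follow, 5′ to 3′ on the gene's strand, with the boxes in capitals.
Srf: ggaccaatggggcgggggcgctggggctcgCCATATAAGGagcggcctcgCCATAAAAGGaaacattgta
Myl9: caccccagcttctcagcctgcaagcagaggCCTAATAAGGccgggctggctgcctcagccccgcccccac
Vcl: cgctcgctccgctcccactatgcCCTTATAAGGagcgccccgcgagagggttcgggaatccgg
The Srf stretch lies at chr17:46556205-46556274 on the minus strand and holds 2 boxes, the first of which starts 82 bases before the gene start. The Myl9 stretch lies at chr2:156775273-156775342 on the plus strand, with its box 161 to 152 bases before the start. The Vcl stretch lies at chr14:20929148-20929210 on the plus strand, with its box 227 to 218 bases before the start. The immediate-early genes with a box were Egr2, at 108 and 107 CPM at day 14 and 64.9 and 58.5 CPM at day 21, and Zfp36, at 1085 and 1391 CPM and 812 and 1537 CPM. Egr2 was lower in both day 21 libraries, while Zfp36 overlapped between the days. Whether a box goes with a low day 21 level was not tested. Only exact matches to the full motif within the 250 bases were counted, so a gene without a match may hold a variant or more distant box. A match is a description of the sequence and not a measured binding site.

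The smooth muscle end of the list differed more between replicates than between days. Acta2, smooth muscle actin, had 295 and 1112 CPM at day 14, 484 and 190 CPM at day 21 and 901 and 417 CPM in sham. Myh11, smooth muscle myosin, had 39.7 and 224 CPM, 60.3 and 22.9 CPM, and 171 and 69.2 CPM. Day 14 replicate 2 was high and replicate 1 low in both. Without replicate 2 the day differences turned from -1.06 to 0.19 in Acta2, from -1.66 to 0.07 in Myh11 and from -0.39 to 0.23 in Tagln, an actin-binding protein. Tagln also turned, to 0.10, without day 21 replicate 2. Markers of pericytes, which share this programme, moved with them. The 15 pericyte markers, with a count for each in every C57BL/6 library, summed to 1807 and 5193 CPM at day 14, 2839 and 1543 CPM at day 21 and 7447 and 4687 CPM in sham. The 11 smooth muscle markers, likewise with a count each, summed to 718.1 and 2416 CPM, 1242 and 511 CPM, and 2097 and 1031 CPM. Their part in the contractile genes was not tested. In bulk samples such as these, fewer cells of a type and less RNA per cell cannot be told apart. The pericyte list had a median of -0.58, which was 0.33 without day 14 replicate 2, and the contractile list then had -0.23. Rgs5, a defining pericyte gene, had 623 and 1547 CPM at day 14 and 1038 and 416 CPM at day 21, and its day difference turned from -0.58 to 0.22. Vtn, another pericyte gene, turned from -0.56 to 0.67. Pdgfrb, the growth factor receptor of pericytes, had 394 and 688 CPM at day 14, 245 and 324 CPM at day 21 and 1028 and 540 CPM in sham, so both day 21 libraries were the lowest of the 6. Des, desmin, had 59.2 and 119 CPM at day 14 and 65 and 35.1 CPM at day 21, which overlap. Srf, Vcl and Actn1 kept their direction without any 1 of the 4 libraries, and Srf was -0.78 to -1.40.

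**Figure D3:**
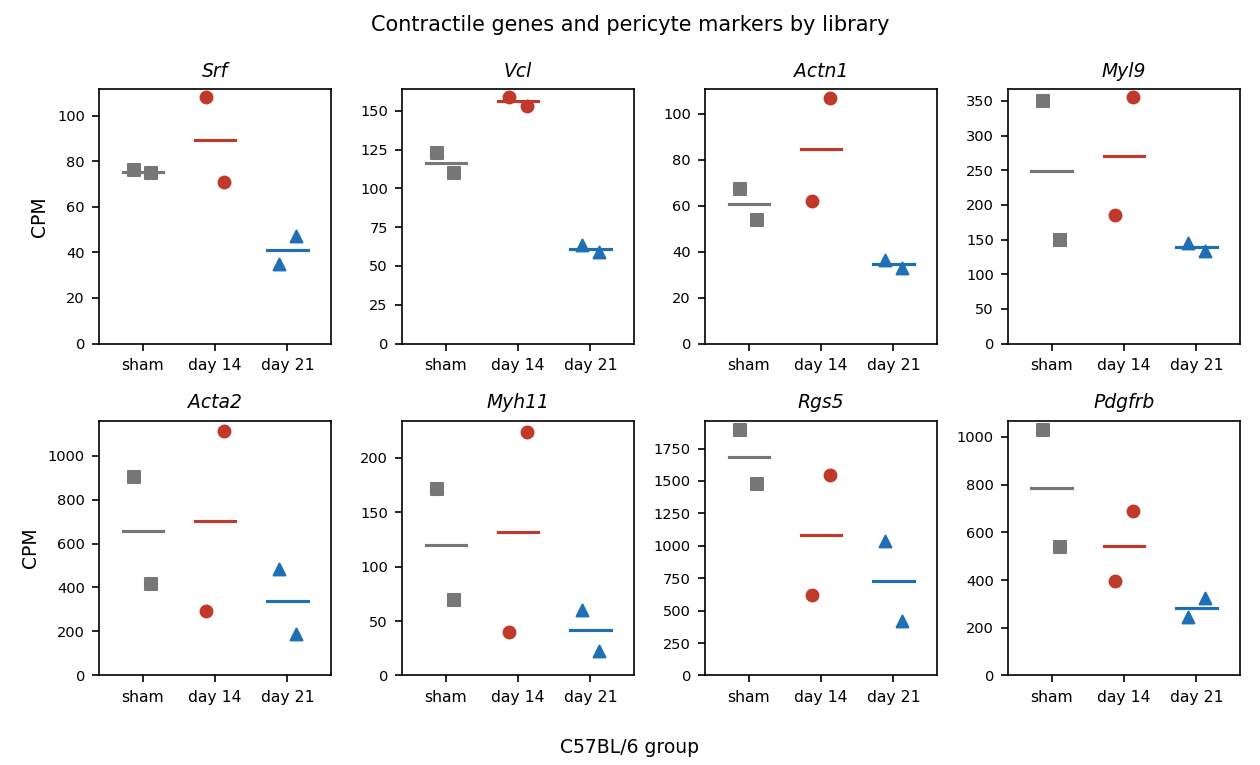
CPM of 4 cytoskeletal genes (upper row) and of 2 smooth muscle and 2 pericyte genes (lower row) in each C57BL/6 library, by group, with a horizontal bar at the mean of 2 libraries. Srf, Vcl and Actn1 are lowest in the 2 day 21 libraries, while Acta2, Myh11 and Rgs5 are split within day 14.

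Genes of the ribosome and of oxidative phosphorylation stood higher at day 21, by their medians. The 99 genes of oxidative phosphorylation tested had a median log2 fold change of 0.71. Both day 21 libraries were above both day 14 libraries in 67 (67.7%, against 16.8% of all genes) and below in 4 (4.04%). Their median transcript length of 1129 nt falls in the class of 1000 to 2000 nt, where 25% of genes were above and 7.01% below. At an unadjusted p under 0.05 there were 19 higher and 0 lower, and edgeR called 0. The fit without the low-count filter called Atp5e, a subunit of the ATP synthase (log2 fold change 1.83, adjusted p = 0.00637). Leaving out 1 library gave medians of 0.58 to 0.80. Subunits of several respiratory complexes were among them. Ndufb9, of complex I, had 47.9 and 72.9 CPM at day 14, 104 and 195 CPM at day 21 and 75.8 and 87.6 CPM in sham (log2 fold change 1.31, SE 0.388). Uqcrh, of complex III, had 146 and 192 CPM, 348 and 373 CPM, and 200 and 227 CPM (1.09, SE 0.357). Cox4i1, of cytochrome c oxidase, had 474 and 539 CPM, 1080 and 1127 CPM, and 565 and 679 CPM, and Atp5c1, of the ATP synthase, had 204 and 215 CPM, 364 and 382 CPM, and 258 and 256 CPM. In the 4 genes the day 21 libraries were the 2 highest and the day 14 libraries the 2 lowest of the 6. Relative to the sham mean, the list's median level was -0.39 and -0.17 at day 14 and 0.25 and 0.56 at day 21 in log2.

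The 86 cytosolic ribosomal protein genes had a median of 0.75, with both day 21 libraries above in 50 (58.1%) and below in 4 (4.65%), and 23 higher and 0 lower at an unadjusted p under 0.05. EdgeR called 0, and the fit without the low-count filter called Rpl39, Rps10 and Rps14. Leaving out 1 library gave medians of 0.64 to 0.82. Rpl39, of the large subunit (chromosome X, 37082520 to 37085402), had 73.3 and 140 CPM at day 14, 492 and 396 CPM at day 21 and 161 and 157 CPM in sham (log2 fold change 2.06, SE 0.558; edgeR adjusted p = 0.903). Rps21, of the small subunit, had 83.3 and 160 CPM, 348 and 324 CPM, and 178 and 232 CPM (1.47, SE 0.411). Rplp2, a stalk protein, had 50.8 and 106 CPM, 216 and 223 CPM, and 99.2 and 142 CPM (1.48, SE 0.439). Day 14 replicate 1 was the lowest library in these 3 genes. Ribosomal protein genes have many near-identical copies in the genome, and how reads shared between copies were counted is not given in the sources used here, so their levels are uncertain. Rpl24, for instance, was at or near 0 in all 6 libraries. The 76 mitochondrial ribosomal protein genes had a median of 0.49, with 38 above (50%) and 3 below (3.95%). Mrps16 among them had 14.3 and 18.7 CPM at day 14 and 41.1 and 80.1 CPM at day 21. The 38 proteasome genes had a median of 0.45, with 20 above (52.6%) and 0 below. The median transcript lengths of both ribosomal lists and of the proteasome list also fall in the class of 1000 to 2000 nt. In that class 25% of genes were above and 7.01% below. Psmb4, a subunit of the proteolytic core, had 212 and 226 CPM at day 14, 341 and 415 CPM at day 21 and 266 and 291 CPM in sham.

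**Figure D4:**
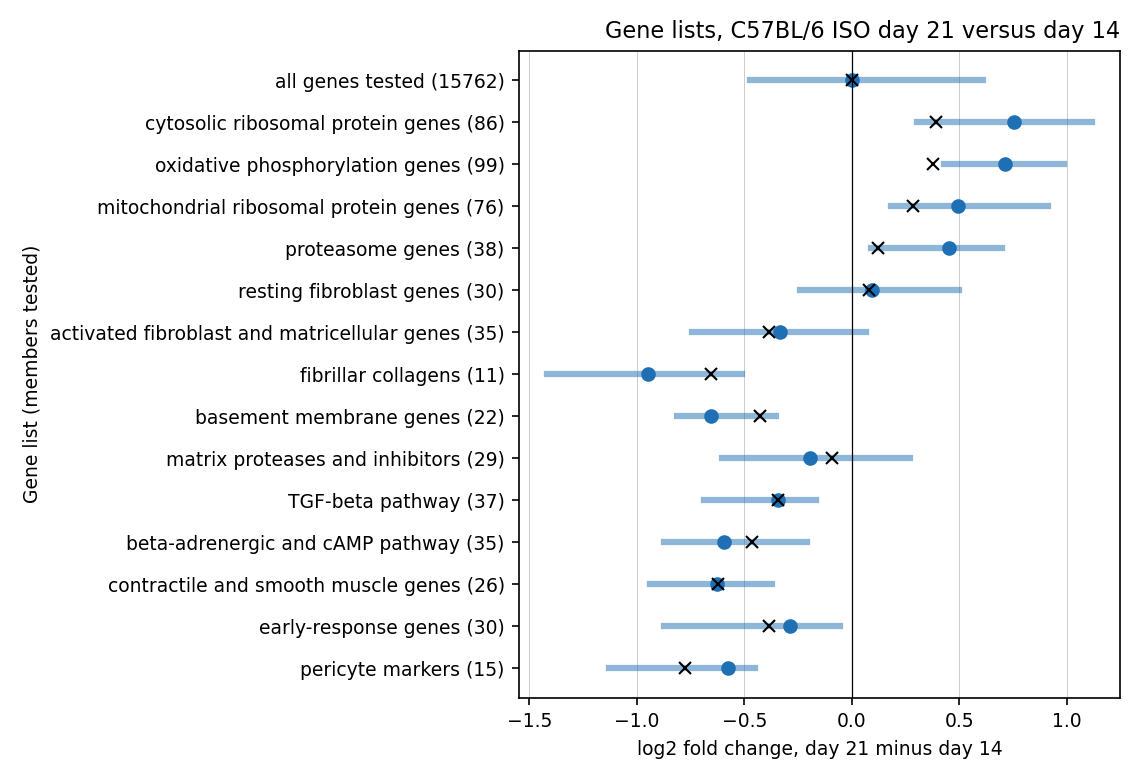
Log2 fold change from day 14 to day 21 over the members of each gene list, with points at the median, bars from the lower to the upper quartile and crosses at the median after offsets for transcript length and GC content. Ribosomal, respiratory and proteasome genes lie to the right of all genes tested, and collagen, basement membrane, contractile and cAMP pathway genes to the left.

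The transcripts of these lists are mostly short, with a median length of 1076 nt for cytosolic ribosomal protein genes and 1129 nt for oxidative phosphorylation genes against 3194 nt over all genes, and transcript length moved with the day difference over all genes. The median log2 fold change was 0.49 for the 1230 genes whose longest annotated transcript has up to 1000 nt, 0.24 for those of 1000 to 2000 nt, 0 for 2000 to 4000 nt, -0.13 for 4000 to 8000 nt and -0.17 for the 870 genes over 8000 nt. Relative to the sham mean, the shortest class stood at -0.37 and -0.19 in the day 14 libraries and at 0 and 0.20 in the day 21 libraries. The longest class stood at -0.38 in day 21 replicate 2 and between -0.05 and 0.02 in the 3 other ISO libraries. Within the shortest class, 37 cytosolic ribosomal protein genes had a median of 0.87 and the 1193 other genes 0.47, and 45 oxidative phosphorylation genes had 0.79 and the 1185 others 0.46. In the class of 2000 to 4000 nt the medians were 0.80 for 12 ribosomal protein genes and 0.48 for 19 oxidative phosphorylation genes, and 0 for the others. After adjusting each library for length and GC content, the list medians were 0.39 for cytosolic ribosomal proteins, 0.38 for oxidative phosphorylation, 0.28 for mitochondrial ribosomal proteins and 0.12 for the proteasome. The same offsets gave -0.65 for fibrillar collagens, -0.43 for basement membrane genes, -0.46 for the cAMP pathway and -0.62 for contractile genes, whose members are longer. The part of RNA quality in the length trend was not tested.

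**Figure D5:**
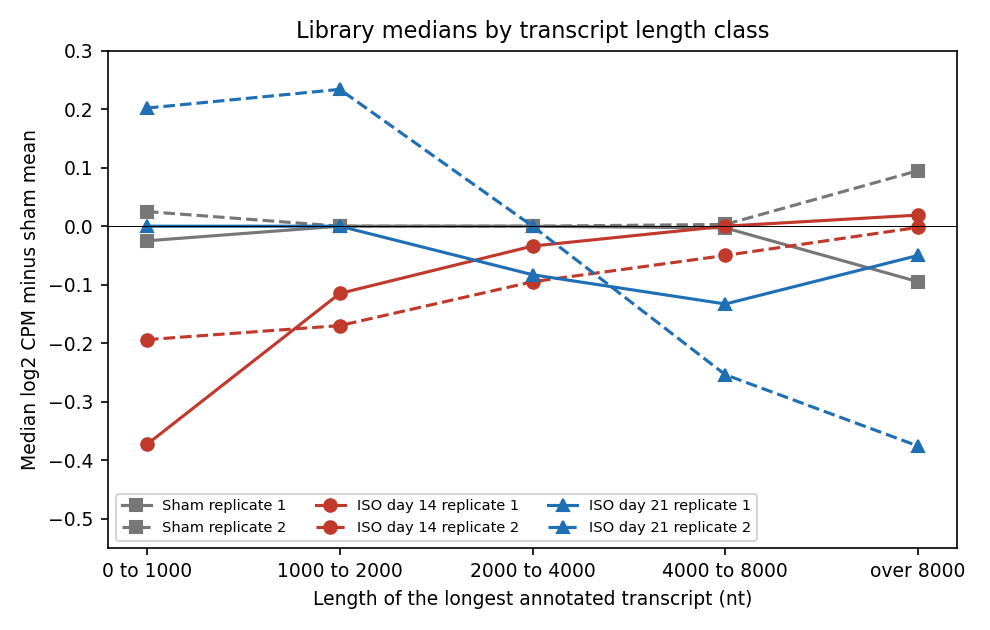
Median over genes of log2 CPM minus the sham mean, for 5 classes of transcript length in nt on the horizontal axis and 1 line per C57BL/6 library. Short transcripts are lowest in the 2 day 14 libraries and highest in day 21 replicate 2, which is also lowest for transcripts over 8000 nt.

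Genes of resting fibroblasts differed little as a group, with a median of 0.09 over 30 genes that was -0.13 without day 21 replicate 2 and 0.35 without day 21 replicate 1. Both day 21 libraries were above in 6 (20%) and below in 3 (10%), against 16.8% and 15.9% of all genes. Col15a1, a collagen of the basement membrane zone, had 3653 and 2309 CPM at day 14, 1262 and 2292 CPM at day 21 and 2889 and 2492 CPM in sham (log2 fold change -0.75, SE 0.361). It was lowest at day 21, whereas the members that follow stood higher there. Dpep1, a membrane dipeptidase (chromosome 8, 123186242 to 123201812), had 728 and 806 CPM at day 14, 1378 and 1618 CPM at day 21 and 1221 and 1366 CPM in sham (log2 fold change 0.97, SE 0.32; edgeR adjusted p = 0.903). It was low at day 14 alone, and the day 21 libraries were the highest of the 6. Penk, the enkephalin precursor, had 29.9 and 22.5 CPM at day 14, 68 and 82.2 CPM at day 21 and 45 and 72 CPM in sham. Mgp, matrix Gla protein, had 3582 and 3772 CPM, 5470 and 5785 CPM, and 4368 and 5008 CPM. Hsd11b1, which activates glucocorticoids, had 68.8 and 62.6 CPM, 138 and 85.8 CPM, and 127 and 156 CPM. Dpep1, Penk, Mgp and Hsd11b1, the last 3 picked after their values were seen, were lower at day 14 than in either sham library. The list as a whole was not: its median log2 difference of day 14 from sham was -0.00331, with library levels of 0.012 and -0.087. Inmt, a methyltransferase, had 22.8 and 152 CPM at day 14 and 363 CPM in each day 21 library, with sham at 94.3 and 176 CPM.

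Stress and metabolic genes were split. Slc2a1, the glucose transporter GLUT1, had 56.7 and 54 CPM at day 14, 23.4 and 15.6 CPM at day 21 and 52.4 and 19.9 CPM in sham, and Hk2, hexokinase 2, had 198 and 84.3 CPM, 34.3 and 43.4 CPM, and 80.2 and 61.3 CPM. The 28 hypoxia and glycolysis genes had a median of -0.08, with 5 below (17.9%) and 4 above (14.3%), close to the shares over all genes. Among antioxidant genes, Txnrd1, thioredoxin reductase, had 155 and 112 CPM at day 14 and 75 and 46.9 CPM at day 21, and Hmox1, heme oxygenase 1, had 223 and 145 CPM and 85.9 and 106 CPM. Prdx5, a peroxiredoxin, went the other way, at 128 and 179 CPM and 235 and 285 CPM. Of 37 interferon-stimulated genes 9 were below (24.3%) and 7 above (18.9%), against 15.9% and 16.8% of all genes. Ddx58, the RNA sensor RIG-I, had 41 and 51 CPM at day 14 and 12.8 and 17.1 CPM at day 21, while Bst2, tetherin, had 49.8 and 25 CPM and 65.5 and 103 CPM. Mki67, a proliferation marker, was scarce, at 4.89 and 0 CPM at day 14 and 5.38 and 6.51 CPM at day 21.

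Single markers of other cells differed between the days. The sums of endothelial, cardiomyocyte and epicardial markers overlapped, while the median levels of their members were higher in both day 21 libraries. In log2 relative to sham, cardiomyocyte markers had medians of -1.04 and -0.96 at day 14 and -0.07 and -0.71 at day 21. Endothelial markers had -1.60 and -1.08, then -0.61 and -0.74, and epicardial markers -0.75 and -0.045, then 0.19 and 0.12. Lyz2, a lysozyme of macrophages, had 5 and 0 counts at day 14 and 29 and 301 counts at day 21, and its level of 20.8 CPM in day 21 replicate 2 was the highest of the 6. DESeq2 and the fit without the low-count filter called it. The 22 macrophage and monocyte markers summed to 20.1 and 32.08 CPM at day 14, 38.46 and 78.54 CPM at day 21 and 28.87 and 38.35 CPM in sham, with Itgam and Fcgr1 at 0 in all 6 libraries. Flt1, a receptor of endothelial cells, had 0 counts at day 14 and 7.41 and 4.71 CPM at day 21, at least 31.8-fold higher, with 8.02 and 19.5 CPM in sham. The 22 endothelial markers together summed to 628.4 and 1064 CPM at day 14 and 1042 and 879.7 CPM at day 21, which overlap. The 20 cardiomyocyte markers summed to 186.7 and 258.3 CPM, 480.4 and 256.2 CPM, and 473.3 and 400.7 CPM in sham. Both day 21 libraries were above both day 14 libraries in 9 of the 20 (45%) and below in 2 (10%), against 16.8% and 15.9% of all genes. The part of these cells in the higher mitochondrial genes of day 21 was not tested. Krt19, a keratin of the epicardium, had 16.2 and 23.2 CPM at day 14 and 55 and 82.3 CPM at day 21, while Aldh1a2, a retinoic acid enzyme of the same layer, had 227 and 200 CPM and 97.8 and 114 CPM. The 13 epicardial markers summed to 472.5 and 675 CPM and to 652 and 690.8 CPM.

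The same day difference was also measured in the 2 other strains, C3H/HeJ and KK/HlJ. The test of the difference between C57BL/6 and the mean of C3H/HeJ and KK/HlJ called 0 genes with edgeR, with 750 at an unadjusted p under 0.05 and a lowest adjusted p of 0.969. DESeq2 called 4. Without KK/HlJ ISO day 14 replicate 2 the test called 114 genes (5 higher, 109 lower in C57BL/6), and without KK/HlJ ISO day 21 replicate 2 it called 5. The first of these 2 fits left KK/HlJ ISO day 14 with replicate 1 alone. That library was the shallowest of the series, at 7230741 counts, and had the lowest median correlation with the others (0.8107). The second left KK/HlJ ISO day 21 with replicate 1 alone, which also stood apart (0.8471). Their calls therefore rest on a single divergent library of KK/HlJ. Side by side, the median day difference of oxidative phosphorylation genes was 0.71 for C57BL/6, -0.32 for C3H/HeJ and -0.37 for KK/HlJ. In the same order of strains it was, for cytosolic ribosomal protein genes, 0.75, -0.43 and -0.27. Transcripts of up to 1000 nt had 0.49, -0.31 and -0.16, so the length trend ran the other way in those strains. Fibrillar collagens had -0.95, -0.44 and 0.27. Kdm6b differed from the other strains by -2.17 in log2 (edgeR adjusted p = 0.969), Nit2 by 2.96 and Vcl by -1.83.

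Each day was also set beside sham. EdgeR called 0 genes at day 14 against sham, with 173 at an unadjusted p under 0.05 and a lowest adjusted p of 0.234 for Postn, whose log2 difference was 2.22 (SE 0.402). DESeq2 called 7. Postn at day 14 passed in DESeq2 (adjusted p = 7.37e-05), without the low-count filter (6.75e-06), with the replicate block (0.00577), in limma voom (0.00206) and without the divergent libraries (0.00463). At day 21 it was 0, with 326 at an unadjusted p under 0.05, and 7 by DESeq2. Postn at day 21 stood 1.27 above sham (SE 0.39). These 2 comparisons share the sham libraries, and each shares a day with the comparison above.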

How the data were processed

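RNA of sorted heart cells was sequenced as single-end reads, per the labels' protocols. The submitters' processing notes list FastQC, STAR 2.5.3a, edgeR and genome mm10, without order. Each deposited table gives unnormalized counts, integers keyed by Ensembl identifier, as the authors' pipeline wrote them. Which program counted the reads, with which annotation and strand option, is not given in the sources used here, so a gene and one overlapping it on either strand may share reads. Of 53342 identifiers, 53237 matched GENCODE M21, which gave symbols and coordinates, and the 105 others held 0.0016% of counts.

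EdgeR 4.0.16 in R 4.3.3 fitted all 18 libraries with 1 term for each of 9 groups, TMM scaling, default filtering and a robust quasi-likelihood test, with 9 residual degrees of freedom and 15762 genes. A call means a p under 0.05 after Benjamini-Hochberg adjustment over all genes. CPM of single genes use effective library sizes, and marker sums use totals. The SE was derived from the fold change and its F statistic. Floors of 3 counts cover counting error only, since reads carry no molecular identifiers. With 0 calls, named genes were the 10 of lowest p each way with both libraries of one day above both of the other, at least 5 CPM on the higher side and no predicted or clone name. Up to 4 members per list with any p under 0.05 and 21 stated genes were added, and up to 5 genes each way from the strain-difference test, Vcl among them. Aspn, Tgfb1, Tgfb3, Tgfbr1, Tgfbr2, Smurf2, Smad7, Adrb1, Adcy6, Fos, Egr1, Jun, Egr2, Zfp36, Cox4i1, Atp5c1, Atp5e, Rps10, Rps14, Rpl24, Penk, Mgp and Hsd11b1 were named outside this rule, after their values were seen. Some genes of the rule and of the lists are not reported here. Members and lists were chosen with earlier results of these data known. Same-numbered libraries were checked for pairing by the correlation of their deviations (day 14 and day 21: -0.00243), and the numbers do not pair the samples. The procedure was tested on simulated data.

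Alternatives were DESeq2 1.42.0, RLE scaling, no low-count filter, a mean of at least 5 CPM, the replicate number as a block, fewer groups, limma 3.58.1 voom with quality weights, and each library left out. After seeing the data, offsets for length and GC content (mgcv 1.9.3) and a fit without 4 libraries with a median correlation under 0.85 were added.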

Additional observations from a re-analysis of the deposited data

How the results depend on the processing

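Between day 21 and day 14, DESeq2 called 13 genes, the fit without the low-count filter 19 and the fit without 4 divergent libraries 5, against 0 as reported; the cause was not tested. RLE scaling, the 5 CPM filter, fewer groups, voom, the length and GC offsets and each library left out (0 to 0) called 0. For day 14 against sham the counts were 7 (DESeq2), 4 (no filter), 1 (voom) and 1 (without divergent libraries). For day 21 against sham they were 7, 21 (no filter), 1 (without divergent libraries) and 1 (offsets). Leaving out 1 library gave 0 to 0 in both. For the strain difference they were 4 (DESeq2) and 21 (no filter), and 0 to 114 with 1 library left out. The upper end of that range came from the fit that left KK/HlJ ISO day 14 with a single divergent library. With the replicate number as a block, the counts were 0 between the days, 1 for day 14 against sham (Postn) and 0 for the 2 other comparisons. The replicate numbers do not pair the samples. The offsets moved the median of all genes by 0.204 for day 14 and 0.146 for day 21 against sham, and not between the days.

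Of 1650 single-gene values under alternatives, 20 changed sign, in 15 of 118 genes, and 0 did so among the 20 genes of lowest p. With 1 of the 4 libraries left out, the values ran from -1.754 to 0.157 for Ccn2, -0.486 to 0.140 for Cilp, -0.110 to 0.420 for Pamr1, -1.885 to 0.192 for Acta2, -1.111 to 0.227 for Tagln, -2.527 to 0.067 for Myh11, -1.383 to 0.222 for Rgs5 and -1.213 to 0.671 for Vtn. They ran from -1.205 to 0.130 for Thy1, -0.962 to 0.176 for Tgfb1, -0.492 to 0.551 for Tgfbr1, -0.608 to 0.092 for Egr1, -0.448 to 0.266 for Jun and -0.604 to 0.313 for Zfp36. The offsets turned Pdgfra to 0.124 and Tgfbr1 to -0.180. Of 196 list medians, 2 changed sign, those of pericyte markers (-1.275 to 0.325) and resting fibroblast genes (-0.130 to 0.346) with 1 library left out, and 18 moved by more than the SD between libraries. With 2 libraries per group and day 21 replicate 1 the shallowest of the 4, absence of calls sets no upper limit on the differences.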

Other observations

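Circadian clock genes differed between the 2 sham libraries. Relative to the sham mean, the 19 genes stood at a median log2 level of 0.99 in sham replicate 1 and -0.99 in sham replicate 2, at 0.34 and 0.57 at day 14 and at 0.65 and -0.56 at day 21. Per1, a core clock gene, had 178 and 45 CPM in sham, 92.6 and 169 CPM at day 14 and 78 and 90.3 CPM at day 21. Bhlhe40, a clock-linked repressor, had 897 and 765 CPM at day 14 and 548 and 413 CPM at day 21. The labels used here give no hour of collection.

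Fewer Schwann cell and glia markers had a count at day 21. All 15 markers had a count in both sham libraries, against 13 of them in each day 14 library and 11 in each day 21 library. Over all genes, more had a count in the day 21 libraries (14651, 14676) than in those of day 14 (14063, 13406). Day 21 replicate 1 had the lowest total of the C57BL/6 libraries, at 10453121 counts. The part of sequencing depth in the marker count was not tested, so it does not show a loss of these cells. The summed level of the Schwann cell and glia markers did not fall below day 14. It was 126.9 and 145.1 CPM at day 21, between the day 14 values of 108.5 and 230.9 CPM. Sox10, a defining transcription factor of these cells, had 4.39 and 18.5 CPM at day 14 and 4.41 and 2.49 CPM at day 21, so the days overlapped.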
